A study of Homo sapiens with 6 samples.

Results

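The keratin genes were taken as every row whose symbol is KRT followed by a number and at most 1 further letter, which gave 55 of 19940 gene rows. Genes of keratin-associated proteins were not included. By sequence family they are 28 type I genes, 26 type II genes and KRT222, which was placed in neither type.

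RNA came from a U2OS line, human osteosarcoma cells, with a stable transgene for GFP-tagged DCP1a, a factor of messenger RNA decapping. All 3 groups of 2 libraries carry this transgene, and whether the line is 1 clone is not given in the sources used here. Rescue cells spent 4 h in 300 mM sodium and then 4 h in 150 mM sodium, hypertonic cells spent 4 h in 300 mM sodium, and isotonic cells were kept in 150 mM sodium. Rescue cells were harvested 4 h later than the others and no isotonic group matches that time, so recovery and time cannot be told apart.

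Keratins are the intermediate filament proteins of epithelial cells. A filament is built from pairs of 1 acidic type I chain and 1 basic type II chain, and the pairs in use differ between simple epithelia such as gut and gland, stratified epithelia such as epidermis, and hair. Cultured tumour cells of connective tissue origin rest mainly on vimentin filaments but can also make the simple keratins KRT8 and KRT18. The genes lie in a cluster on each of 2 chromosomes: the type II genes and KRT18 on chromosome 12, the other type I genes on chromosome 17.

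Total counts ran between 91973726 and 105991428 in rescue libraries, between 101403615 and 103529255 in hypertonic libraries, and between 90196278 and 105336183 in isotonic libraries. Levels below are counts divided by the library total and multiplied by 1000000 (CPM), and they are set side by side between genes only per kilobase of exon or gene span. Features of the libraries touch the keratin values. First, the library labelled hypertonic 1 resembled the one labelled isotonic 2, and hypertonic 2 resembled isotonic 1. Over the 14 keratins with a mean of at least 1 CPM, the median fold between 2 libraries was 1.07 for hypertonic 1 and isotonic 2 and 1.02 for hypertonic 2 and isotonic 1. Between libraries of the same label it was 1.37 for the hypertonic pair and 1.35 for the isotonic pair, against 1.07 for the rescue pair. Whether labels were exchanged between these libraries was not tested, and every hypertonic or isotonic group value rests on the labels as given. Results are also given with libraries left out. Second, rows without a single count numbered 690 and 699 in rescue libraries, 1248 and 1653 in hypertonic libraries, and 1627 and 1270 in isotonic libraries. The summed level of 386 olfactory receptor rows, genes that are mostly silent outside the nose, was 115.9 and 125.3 CPM in rescue libraries, 40.97 and 58.01 CPM in hypertonic libraries, and 61.05 and 41.43 CPM in isotonic libraries. A broad gain of low rows therefore accompanies every gain of a low keratin reported here, and its part in those gains was not tested. In bulk RNA, fewer cells of a type and less RNA per cell cannot be told apart.

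The keratin RNA of these cells was concentrated in a handful of genes. Per kilobase of exon, KRT81 averaged 91.7 CPM over the 6 libraries, KRT86 76.3, KRT18 73.2, KRT17 57.0, KRT80 40.7 and KRT8 30.3. KRT10 stood at 7.03 and KRT34 at 3.26. Per kilobase of gene span, the highest were KRT18 at 58.5 CPM, KRT17 at 33.1 and KRT81 at 31.5. KRT18 and KRT8 form the filament pair of simple epithelia, KRT17 is induced in wounded skin and hair follicles, KRT81 is a hair cortex keratin, and KRT80 is widespread in epithelia. The row of KRT86, another hair keratin, tracked that of KRT81, with 203.1 ± 4.36 CPM in rescue libraries, 169.2 ± 7.47 CPM in hypertonic libraries and 176.0 ± 1.68 CPM in isotonic libraries (SD, n = 2 each). Its span (GRCh38, chr12:52249300-52309163, plus strand) encloses KRT81 (chr12:52285913-52291534, minus strand). Of the 100-base words in KRT81 exons, 29.7% also occur in another keratin gene or keratin pseudogene, mostly KRT86. The levels of KRT86 and of KRT81 are therefore both uncertain, and so is the place of KRT81 among the highest keratins.

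Of the 55 rows, 35 had enough counts to be tested and 20 did not. None of the 20 exceeded 16 counts in a library, and KRT25 and KRT28, keratins of the inner root sheath of hair, had no count in any library. Keratin rows at 0 numbered 8 and 4 in rescue libraries, 17 and 20 in hypertonic libraries, and 15 and 15 in isotonic libraries. A count of 0 allows up to 3 counts, between 0.0283 and 0.0333 CPM at these depths, by counting error alone. Summed over all keratins, the level was 1266 ± 37.5 CPM in rescue libraries, 1172 ± 35.2 CPM in hypertonic libraries and 1178 ± 40.7 CPM in isotonic libraries (SD, n = 2 each). This order depends on the scaling, because with TMM scaling (trimmed mean of M-values) the means were 1104 in rescue libraries, 1262 in hypertonic libraries and 1263 in isotonic libraries.

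**Figure D1:**
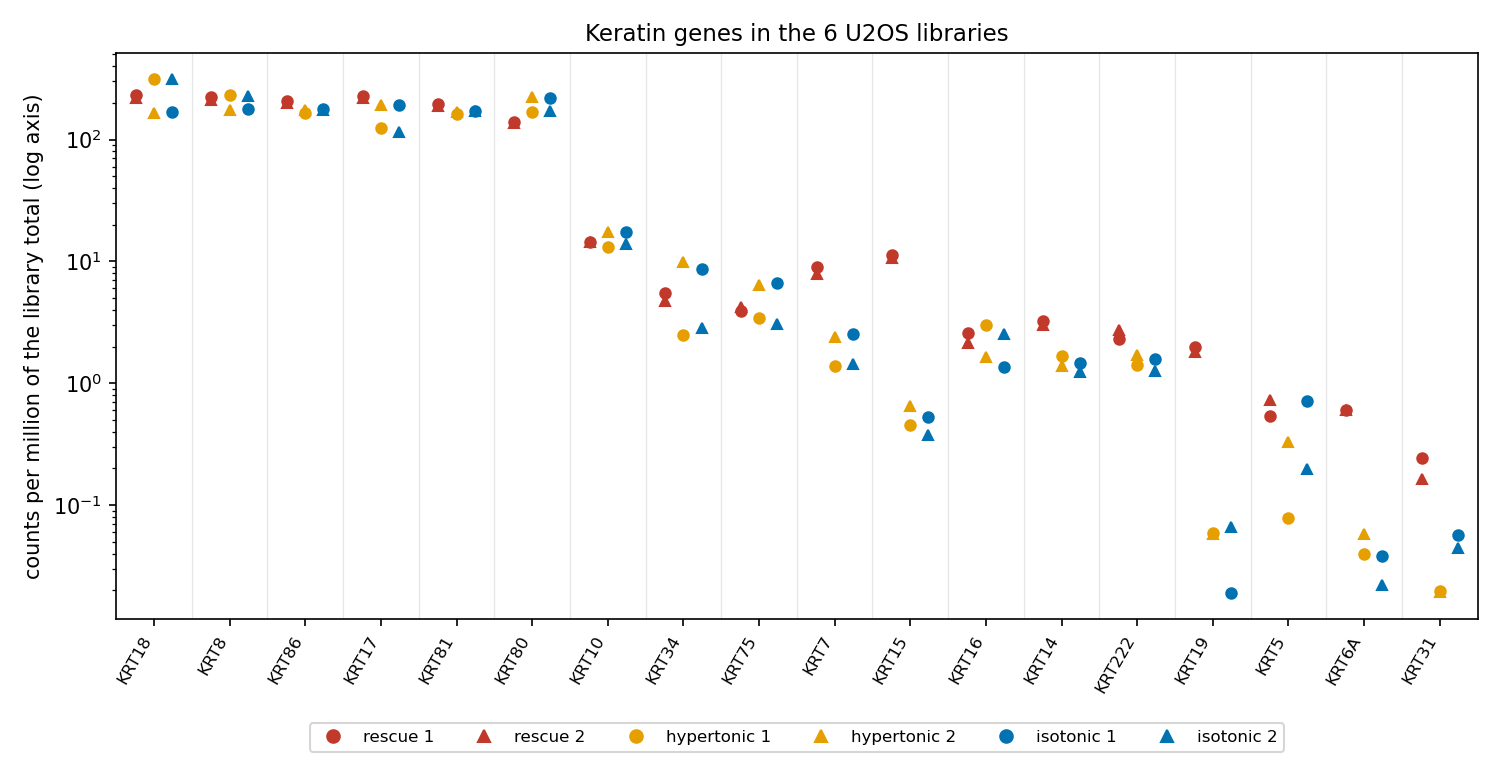
Level of the 18 keratins named by rule, in CPM by library total on a log axis, with 1 point per library. Rescue libraries lie above the other 4 at KRT15, KRT19, KRT6A, KRT7 and KRT31 and below them at KRT80, all of which passed in a rescue comparison. They also lie above at KRT14, KRT17, KRT81, KRT86 and KRT222, which did not pass in edgeR. At KRT18 and KRT34 the hypertonic and isotonic libraries of the same label lie far apart.

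Rescue against isotonic and rescue against hypertonic asked which changes remained or appeared after the return to normal sodium. KRT15, KRT19, KRT6A and KRT7 rose in rescue cells against isotonic cells, and KRT80 fell. The same 5 genes passed against hypertonic cells with the same signs, and KRT31 also rose there. Both comparisons use the same 2 rescue libraries, so they are not independent. All but KRT80 and KRT7 had means under 1 CPM in the groups compared with rescue.

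Against isotonic cells, 4 keratins were higher and 1 lower of 35 tested, where 23.1% of all 18208 rows tested were called, 9.61% higher and 13.5% lower (edgeR quasi-likelihood test, Benjamini-Hochberg adjusted p under 0.05). Against hypertonic cells, 5 were higher and 1 lower, where 23.6% of all rows were called, 9.86% higher and 13.8% lower. With the hypertonic and isotonic libraries alone, 22 keratins and 17329 rows pass the expression filter, so some of the 35 keratins entered only through the rescue libraries, where they are high, and the counts are read as a description. The median log2 fold change of all rows was -0.02 in both comparisons. With upper quartile scaling these medians became 0.19, and 59.8% of the calls against isotonic cells were higher, where TMM scaling gave 41.6%; against hypertonic cells the shares were 59.6% and 41.7%. Nothing in the labels gives separate cultures for the libraries that share a group, and p-values then measure only how these libraries scatter, which could be technical.

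KRT15, a keratin of basal keratinocytes and hair follicle stem cells, was at 11.4 and 10.6 CPM in rescue libraries, 0.454 and 0.647 CPM in hypertonic libraries, and 0.532 and 0.377 CPM in isotonic libraries. It was 19.8-fold higher in rescue than in isotonic cells (log2 fold change 4.31, SE 0.301, edgeR adjusted p = 0.00834) and 16.3-fold higher than in hypertonic cells (4.03, SE 0.296, edgeR adjusted p = 0.00834). Its gene lies at chr17:41513743-41522529 (GRCh38, minus strand). None of its 100-base exon words occurred in another keratin gene or keratin pseudogene, and other genes were not searched. The rescue pair lay far above the other 4 libraries, which were close to each other whatever their label.

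KRT19, the smallest keratin, which lacks the usual tail domain and is made in ducts and glands, lies next to KRT15 at chr17:41523617-41528308. Its counts were 212 and 165 in rescue libraries, 6 and 6 in hypertonic libraries, and 2 and 6 in isotonic libraries. The fitted difference was 35.2-fold over isotonic cells (log2 fold change 5.14, SE 0.729, edgeR adjusted p = 0.0159) and 25.8-fold over hypertonic cells (4.69, SE 0.704, edgeR adjusted p = 0.0175). KRT19 was thus close to the counting floor before rescue, and the size of its fold rests on those few counts.

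KRT13, a keratin of oral and oesophageal lining, is the neighbour of KRT15 on the other side. It had 131 and 105 counts in rescue libraries, 2 and 8 in hypertonic libraries, and 10 and 0 in isotonic libraries, without overlap between rescue and the rest. It did not pass against isotonic cells (log2 fold change 4.33, SE 1.42, edgeR adjusted p = 0.098) or against hypertonic cells (4.31, SE 1.42, edgeR adjusted p = 0.0983), but it passed against isotonic cells with DESeq2 and with limma voom. KRT13, KRT15 and KRT19 are consecutive on the chromosome, and each had its 2 rescue libraries above all others. That ordering was found in 45.0% of all rows. KRT36 and KRT9, the keratins on either side of these genes, showed it as well, so it does not set them apart from their neighbours. Further along the same cluster KRT14, the partner of KRT5 in basal epidermis, stood at 3.26 and 2.99 CPM in rescue libraries, 1.67 and 1.39 CPM in hypertonic libraries, and 1.48 and 1.24 CPM in isotonic libraries. KRT14 did not pass in edgeR (edgeR adjusted p = 0.0842 against isotonic cells). Against isotonic cells it passed with DESeq2 (DESeq2 adjusted p = 0.00448) and not with limma voom.

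KRT6A, which is switched on in injured and hyperproliferative epidermis, had 64 and 56 counts in rescue libraries, 4 and 6 in hypertonic libraries, and 4 and 2 in isotonic libraries. It was 15.9-fold higher in rescue than in isotonic cells (log2 fold change 3.99, SE 0.536, edgeR adjusted p = 0.0137) and passed against hypertonic cells (3.31, SE 0.51, edgeR adjusted p = 0.0176). Its near copy KRT6B had 66 and 42 counts in rescue libraries, 13 and 36 in hypertonic libraries, and 44 and 18 in isotonic libraries, and did not pass (edgeR adjusted p = 0.591 against isotonic cells). KRT6C, the other copy, had at most 4 counts in a library and was not tested. Reads of the copies are hard to separate where the sequences are identical, and a stretch in which they can be told apart is shown for that reason. The coding sequences of the 3 genes are 1695 bases each, and KRT6A differs from KRT6B at 43 bases (97.5% identity) and from KRT6C at 35 (97.9% identity). Coding bases 658 to 747 of the GENCODE 29 transcripts, 5′ to 3′, hold 10 positions at which the 3 are not all alike, given in capitals:
KRT6A: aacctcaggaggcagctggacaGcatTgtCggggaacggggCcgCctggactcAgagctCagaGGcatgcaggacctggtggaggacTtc
KRT6B: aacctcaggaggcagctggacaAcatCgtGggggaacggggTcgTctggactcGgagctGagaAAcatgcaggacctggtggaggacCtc
KRT6C: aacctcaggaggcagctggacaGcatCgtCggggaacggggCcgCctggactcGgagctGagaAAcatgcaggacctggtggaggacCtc
By 100-base exon words, 13.6% of KRT6A was shared with another keratin gene, against 24.6% of KRT6B and 24.7% of KRT6C. How reads with several equally good places were counted is not given in the sources used here, so counts of the 3 genes remain uncertain against each other.

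KRT7, a type II keratin of ducts and glands, was at 8.99 and 7.92 CPM in rescue libraries, 1.39 and 2.40 CPM in hypertonic libraries, and 2.54 and 1.44 CPM in isotonic libraries. It was 3.51-fold higher in rescue than in isotonic cells (log2 fold change 1.81, SE 0.378, edgeR adjusted p = 0.0351) and 3.67-fold higher than in hypertonic cells (1.88, SE 0.378, edgeR adjusted p = 0.0323). Its span at chr12:52232520-52252186 overlaps the start of the KRT86 row on the same strand and an antisense RNA, so reads there may belong to either.

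KRT80 was the keratin that fell. It stood at 140.4 and 136.5 CPM in rescue libraries, 169.9 and 222.8 CPM in hypertonic libraries, and 218.1 and 173.3 CPM in isotonic libraries. The level in rescue cells was 1.73-fold lower than in isotonic cells (log2 fold change -0.79, SE 0.134, edgeR adjusted p = 0.0219) and 1.74-fold lower than in hypertonic cells (-0.80, SE 0.134, edgeR adjusted p = 0.021). Under upper quartile scaling the difference from isotonic cells was no longer called (edgeR adjusted p = 0.051). KRT80 lies at chr12:52168996-52192000, at the edge of its cluster, on the minus strand. It shared no 100-base word with another keratin gene or keratin pseudogene, but its span overlaps LINC00592 on the plus strand. Reads of KRT80 and LINC00592 may not be told apart.

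KRT31, a hair cortex keratin, had 26 and 15 counts in rescue libraries, 2 and 2 in hypertonic libraries, and 6 and 4 in isotonic libraries. It passed against hypertonic cells (log2 fold change 3.02, SE 0.62, edgeR adjusted p = 0.0323) and not against isotonic cells (1.70, SE 0.565, edgeR adjusted p = 0.0976). The call against hypertonic cells rests on 4 counts in all, and it ended when either isotonic library was left out (edgeR adjusted p = 0.0536 without isotonic 1 and 0.0554 without isotonic 2).

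All keratin calls ended when any 1 library of the 2 groups compared was left out, and so did the calls of all other rows, 0 of which passed in edgeR in those fits, with between 3652 and 6631 rows at an unadjusted p under 0.05. For KRT15, the keratin with the smallest p, the edgeR adjusted p was 0.159 without rescue 1, 0.169 without rescue 2, 0.0525 without isotonic 1 and 0.0548 without isotonic 2, while its log2 fold change stayed between 4.15 and 4.49. Against hypertonic cells it was 0.156 without rescue 1, 0.165 without rescue 2, 0.0557 without hypertonic 1 and 0.0508 without hypertonic 2.

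**Figure D2:**
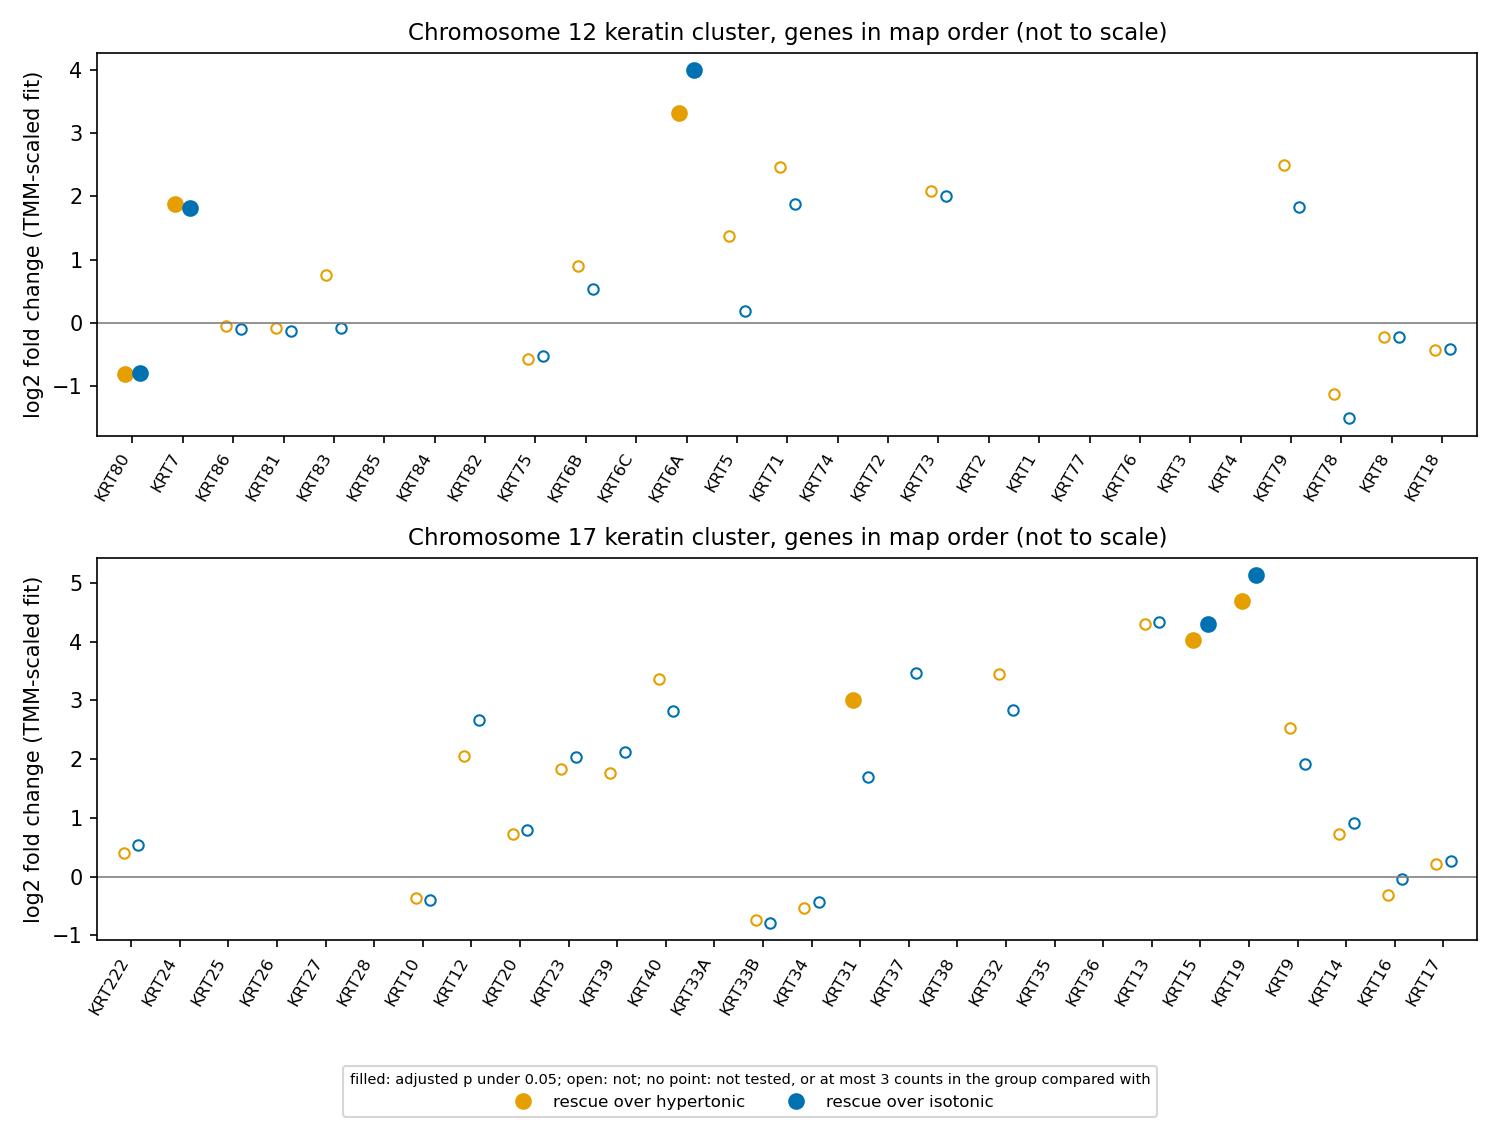
Log2 fold change of rescue over hypertonic and over isotonic cells for the keratins tested, in map order within the 2 clusters (TMM-scaled fit). Keratins not tested have no point, nor does a comparison with a group of at most 3 counts. Filled points passed at an adjusted p under 0.05, and KRT15 and KRT19 stand side by side at 4.31 and 5.14 over isotonic cells, with KRT13 next to them at 4.33 but not passing.

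Of the most abundant keratins, KRT80 alone was called. KRT8 was at 224.2 and 211.4 CPM in rescue libraries, 232.2 and 175.8 CPM in hypertonic libraries, and 178.4 and 229.7 CPM in isotonic libraries. KRT18 was at 230.3 and 220.4 CPM in rescue libraries, 316.1 and 166.7 CPM in hypertonic libraries, and 167.6 and 312.8 CPM in isotonic libraries. For both genes the rescue pair fell between the 2 libraries of each other label. KRT8 and KRT18 are neighbours whose spans overlap, at chr12:52897187-52949954 and chr12:52948871-52952901, and they are the keratins with most processed pseudogenes in the annotation, 50 and 68 by name. KRT17 was at 228.7 and 219.1 CPM in rescue libraries, 124.4 and 192.4 CPM in hypertonic libraries, and 191.3 and 115.2 CPM in isotonic libraries. KRT81 was at 196.8 and 189.5 CPM in rescue libraries, 161.3 and 170.1 CPM in hypertonic libraries, and 172.2 and 171.5 CPM in isotonic libraries. Both KRT17 and KRT81 were above the other 4 libraries in rescue by CPM, yet KRT81 had a log2 fold change over isotonic cells of -0.13 with TMM scaling and 0.09 with upper quartile scaling, so its direction is set by the scaling. The edgeR adjusted p against isotonic cells was 0.607 for KRT8, 0.597 for KRT18, 0.51 for KRT17 and 0.425 for KRT81.

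KRT10, a keratin of differentiating epidermis whose span overlaps TMEM99, was at 14.5 and 14.3 CPM in rescue libraries, 13.1 and 17.3 CPM in hypertonic libraries, and 17.4 and 13.8 CPM in isotonic libraries. KRT5, the basal partner of KRT14, was at 0.538 and 0.729 CPM in rescue libraries, 0.0789 and 0.328 CPM in hypertonic libraries, and 0.722 and 0.200 CPM in isotonic libraries. KRT222, which overlaps a second annotated gene, was at 2.29 and 2.74 CPM in rescue libraries, 1.40 and 1.72 CPM in hypertonic libraries, and 1.58 and 1.26 CPM in isotonic libraries. None of these 3 passed in either comparison, and only KRT222 had both rescue libraries above the rest.

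Over all 55 keratins, called or not and at any level, both rescue libraries lay above the other 4 in 32 of 55. This held for 45.0% of all rows. Both lay below the other 4 in 2 of 55 keratins and in 19.9% of all rows. A row at 0 in any hypertonic or isotonic library cannot have rescue below it. In those libraries between 15 and 20 of the 55 keratins were at 0, against 1248 to 1653 of all 19940 rows. The shares lying below are therefore not a like comparison. By class, 4 of 6 simple epithelial keratins lay above, 8 of 17 of stratified epithelia, 3 of 6 of the wound and companion layer group, 4 of 8 of the inner root sheath and 12 of 17 of the hair cortex and cuticle, so that the stratified, wound and inner root sheath classes were near the share of all rows. The hair rows that lay above include KRT81 and KRT86, whose log2 fold changes over isotonic cells were -0.13 and -0.09 with TMM scaling. They also include KRT38, with 2 and 2 counts in rescue libraries and 0 in the others. The shares lying above rest on CPM without TMM scaling and take in such low rows, so they too are read as a description. Among the keratins that did not pass, several low ones stood higher in rescue libraries. The 8 inner root sheath keratins together made 0.764 and 0.881 CPM in rescue libraries, 0.138 and 0.0773 CPM in hypertonic libraries, and 0.133 and 0.144 CPM in isotonic libraries. KRT37, a keratin of vellus hair, had 48 and 44 counts in rescue libraries, none in either hypertonic library, and 0 and 6 in isotonic libraries. With 3 counts allowed for the summed hypertonic libraries, its level was at least 31.7-fold higher in rescue than in hypertonic cells. This bound, like those of KRT78 given later, treats counts as independent and would be smaller if each fragment was counted more than once, since most low counts were even. KRT79, known in mouse from sebaceous gland ducts, stood at 2.21 and 1.85 CPM in rescue libraries, 0.109 and 0.493 CPM in hypertonic libraries, and 0.589 and 0.344 CPM in isotonic libraries. KRT37 and KRT79 were chosen as examples after their values were seen.

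Hypertonic against isotonic, by the labels as given, asked what high sodium itself changed. No keratin passed, and none had an unadjusted p under 0.05. No row of all 18208 passed in edgeR's quasi-likelihood test, 0.0%, with 52 rows at an unadjusted p under 0.05, and DESeq2 called 1 row. Libraries of the same label differed by more than hypertonic 1 did from isotonic 2 or hypertonic 2 from isotonic 1. KRT34, a hair cortex keratin, showed the widest gap of the 14 keratins at 1 CPM or more, with 2.51 and 9.97 CPM in hypertonic libraries and 8.66 and 2.85 CPM in isotonic libraries. KRT75, of the companion layer of the hair follicle, had 3.43 and 6.46 CPM in hypertonic libraries and 6.65 and 3.06 CPM in isotonic libraries. KRT16, the partner of KRT6A in injured skin, had 3.04 and 1.65 CPM in hypertonic libraries and 1.36 and 2.55 CPM in isotonic libraries. In rescue libraries KRT34 had 5.51 and 4.72 CPM, KRT75 3.91 and 4.25 CPM and KRT16 2.60 and 2.13 CPM, between the extremes in each case.

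The 2 library numbers gave opposite differences for most keratins averaging at least 1 CPM. Hypertonic 1 over isotonic 1 was a ratio of 1.89 for KRT18, 1.30 for KRT8, 2.24 for KRT16, 0.650 for KRT17, 0.516 for KRT75 and 0.289 for KRT34. Hypertonic 2 over isotonic 2 was a ratio of 0.533 for KRT18, 0.765 for KRT8, 0.648 for KRT16, 1.67 for KRT17, 2.11 for KRT75 and 3.50 for KRT34. Every one of these 6 genes, given as examples, thus lay on the other side of 1 in the second number. KRT81, with ratios of 0.937 and 0.991, KRT86, with 0.925 and 0.998, and KRT14, with 1.13 and 1.12, stayed on the same side of 1. KRT78, an epidermal keratin, had 35 and 0 counts in hypertonic libraries and 0 and 41 in isotonic libraries, with 10 and 10 in rescue libraries. Its level was at least 12.1-fold higher in hypertonic 1 than in isotonic 1 and at least 15.7-fold lower in hypertonic 2 than in isotonic 2, with 3 counts allowed for each library at 0.

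**Figure D3:**
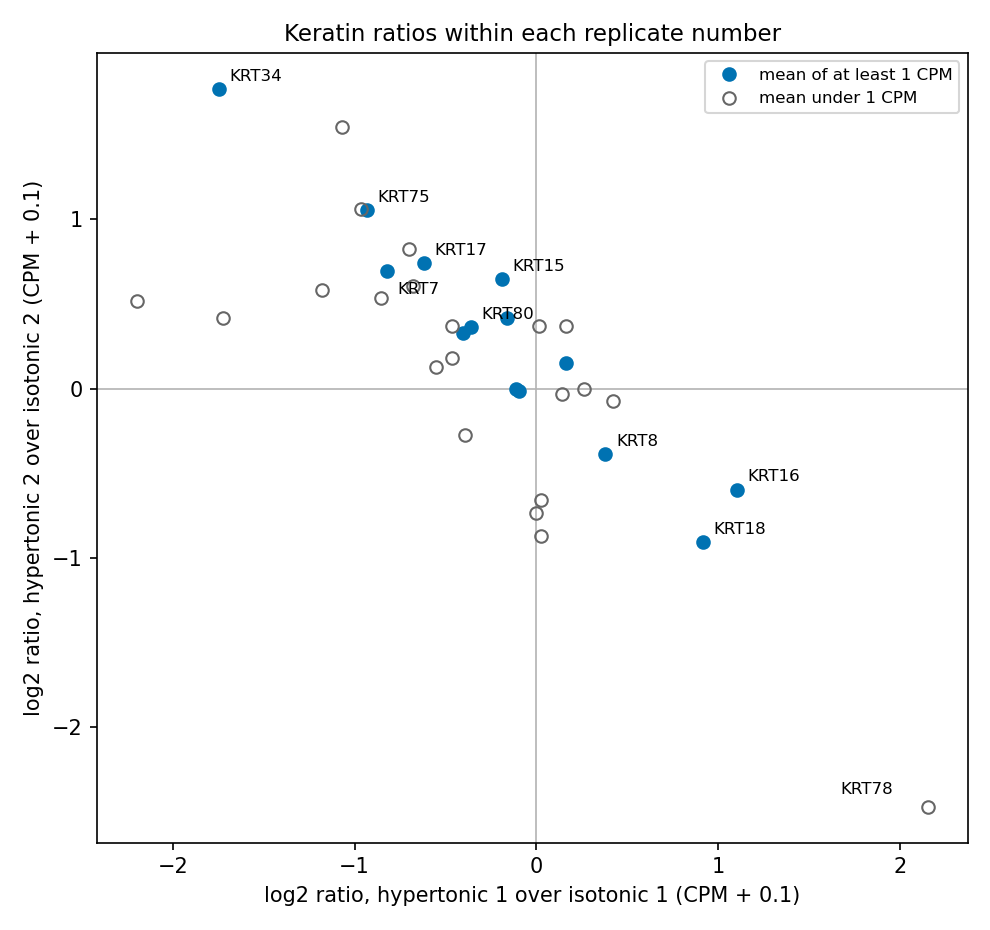
Log2 ratio of hypertonic 2 over isotonic 2 against that of hypertonic 1 over isotonic 1 for the 35 keratins tested, computed on CPM plus 0.1. KRT34, KRT75, KRT17 and KRT7 lie at the upper left, and KRT8, KRT18, KRT16 and KRT78 at the lower right, so the 2 numbers give opposite signs for them.

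When only the libraries numbered 1 were used for these 2 groups, with both rescue libraries, 4 keratins were higher and 11 lower in the hypertonic than in the isotonic library of 39 tested, where 64.2% of all rows were called, 31.6% higher and 32.6% lower. With the libraries numbered 2, 8 were higher and 6 lower of 40 tested, where 63.9% of all rows were called, 32.9% higher and 31.0% lower. In these fits the spread comes from the rescue pair alone and the lone libraries are assumed to vary like it. Some keratins passed the expression filter of these fits only through the rescue libraries, where they are high. The keratin counts are therefore read as a description. There were 11 keratins called in both fits, and in all 11 the sign was opposite, as it was for 10665 of the 10673 rows of any gene called in both. The log2 fold changes for number 1 and number 2 were 1.07 and -1.05 for KRT18, 0.54 and -0.53 for KRT8, -1.63 and 1.67 for KRT34, and -0.46 and 0.60 for KRT17. In the same fits, rescue against isotonic called 28 keratins with number 1, 23 higher and 5 lower, and 30 with number 2, 22 higher and 8 lower. Of all rows, 79.1% were called with number 1, 40.5% higher and 38.6% lower, and 80.8% with number 2, 40.7% higher and 40.1% lower. Of the keratins called with both numbers, KRT80 and KRT10 were lower in both and KRT16, KRT18, KRT34 and KRT78 changed sign. The rest were higher in both. How many of all rows were called the same way with both numbers was not computed for the rescue comparisons. Rescue against hypertonic called 29 keratins with number 1, 23 higher and 6 lower, where 81.4% of all rows were called, 41.0% higher and 40.5% lower. With number 2 it called 26, 21 higher and 5 lower, where 79.1% of all rows were called, 40.5% higher and 38.6% lower. Of the keratins called with both, KRT80 and KRT10 were again lower in both, KRT18, KRT34 and KRT78 changed sign, and the rest were higher in both.

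KRT34, KRT33B and KRT31 are consecutive genes of the chromosome 17 cluster, and differences between them were not tested. KRT33B, a hair cortex keratin, was at 0.604 and 0.609 CPM in rescue libraries, 0.651 and 1.01 CPM in hypertonic libraries, and 1.10 and 0.632 CPM in isotonic libraries, with its 2 rescue libraries below the rest, and it passed in neither rescue comparison (edgeR adjusted p = 0.229 against isotonic cells and 0.252 against hypertonic cells). KRT34 did not pass either (edgeR adjusted p = 0.729 and 0.655). KRT31 passed against hypertonic cells only, as given above. The 250 bases before the RefSeq start of each (GRCh38.p14, minus strand) are shown because KRT34 had the widest gap between same-labelled libraries and KRT31 a call, and KRT33B is their neighbour; capitals mark the TATAAA that starts 31 bases upstream of the start in KRT34 (chr17:41382307-41382556), 28 in KRT33B (chr17:41369814-41370063) and 29 in KRT31 (chr17:41397609-41397858):
KRT34: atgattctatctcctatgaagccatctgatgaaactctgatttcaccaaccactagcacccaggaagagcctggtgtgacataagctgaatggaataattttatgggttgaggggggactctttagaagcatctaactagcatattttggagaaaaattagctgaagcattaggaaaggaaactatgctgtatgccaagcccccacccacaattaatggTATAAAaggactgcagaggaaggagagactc
KRT33B: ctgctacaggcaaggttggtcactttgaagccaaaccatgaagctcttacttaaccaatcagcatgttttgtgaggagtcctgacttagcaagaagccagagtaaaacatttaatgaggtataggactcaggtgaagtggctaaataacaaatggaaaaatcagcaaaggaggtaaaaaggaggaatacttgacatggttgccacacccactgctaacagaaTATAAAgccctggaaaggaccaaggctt
KRT31: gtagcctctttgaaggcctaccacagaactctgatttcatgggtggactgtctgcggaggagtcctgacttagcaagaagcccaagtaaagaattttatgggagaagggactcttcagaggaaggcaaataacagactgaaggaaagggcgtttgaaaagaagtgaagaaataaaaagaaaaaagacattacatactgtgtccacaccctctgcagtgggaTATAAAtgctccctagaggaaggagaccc
The GENCODE span of KRT34 begins upstream of the RefSeq start, inside this window. TATAAA, searched on both strands, occurred in 10.7% of 35116 RefSeq promoters of this length and in 21 of the 38 found for 34 keratin genes. The AP-1 motif TGANTCA occurred in 6.57% of all and in 0 of the 38, and the GC box GGGCGG in 42.6% of all and in 4 of the 38. Neither of these occurred in the 3 windows shown.

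The proteins that tie keratins to cell junctions gave 5 of 17 desmosome and hemidesmosome genes higher and 0 lower in rescue than in isotonic cells, with a median log2 fold change of 0.38, where 9.61% of all rows were higher and 13.5% lower with a median of -0.02. Against hypertonic cells 5 were higher and 0 lower as well, with a median of 0.32, where 9.86% of all rows were higher and 13.8% lower, again with a median of -0.02. JUP, plakoglobin of desmosomes and adherens junctions, was at 55.2 and 54.4 CPM in rescue libraries, 24.5 and 21.1 CPM in hypertonic libraries, and 20.7 and 22.0 CPM in isotonic libraries (log2 fold change 1.06 over isotonic cells, edgeR adjusted p = 0.0233). PPL, periplakin, which links keratins to desmosomes, was at 25.7 and 25.5 CPM in rescue libraries, 5.36 and 3.82 CPM in hypertonic libraries, and 3.85 and 4.91 CPM in isotonic libraries (2.24, edgeR adjusted p = 0.0164); its span overlaps SEC14L5. DSG3, DSG4 and DSC1, desmosomal cadherins of skin and hair, were the other 3 against isotonic cells, each at no more than 1.00 CPM. DSG4 had no count in any hypertonic or isotonic library, so it entered the test only through the rescue libraries, where it is high. DSG3 and DSC1 were at no more than 0.0789 CPM outside rescue. The counts of this list are therefore read as a description, like those of the keratins. DSP, desmoplakin, was at 6.75 and 6.80 CPM in rescue libraries, 1.82 and 3.40 CPM in hypertonic libraries, and 3.34 and 1.97 CPM in isotonic libraries, and did not pass (edgeR adjusted p = 0.114). The list did not rise as a whole. Its rows with the highest CPM, not corrected for gene length, were PLEC, DST, DSG2 and PKP2, and none of them passed. Their log2 fold changes over isotonic cells were -0.27 for PLEC, -0.86 for DST, -0.09 for DSG2 and -0.79 for PKP2.

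Of 16 other intermediate filament genes, 1 was higher and 3 were lower in rescue than in isotonic cells, and likewise against hypertonic cells, with median log2 fold changes of 0.71 and 0.71; these counts are near the shares of all rows, 9.61% higher and 13.5% lower against isotonic cells. SYNM, synemin, rose (log2 fold change 1.20, edgeR adjusted p = 0.0222). NES, nestin, fell to 86.9 and 85.9 CPM in rescue libraries, against 162.7 and 196.7 CPM in hypertonic libraries and 196.6 and 161.8 CPM in isotonic libraries (-1.34 over isotonic cells, edgeR adjusted p = 0.00887). The B-type lamins of the nuclear lamina also fell, LMNB1 by a log2 fold change of -1.50 (edgeR adjusted p = 0.0159) and LMNB2, whose span overlaps TIMM13, by -1.87 (edgeR adjusted p = 0.00834). VIM, vimentin, was at 1794 and 1683 CPM in rescue libraries, 1799 and 1520 CPM in hypertonic libraries, and 1549 and 1779 CPM in isotonic libraries and did not pass (edgeR adjusted p = 0.427).

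Epithelial adhesion and junction genes were 4 higher and 1 lower of 19 tested against isotonic cells, with a median of 0.55, and 3 higher and 1 lower against hypertonic cells, with a median of 0.38. The shares of all rows were 9.61% higher and 13.5% lower against isotonic cells, and 9.86% higher and 13.8% lower against hypertonic cells. EPCAM, an epithelial adhesion molecule, rose (log2 fold change 1.39 over isotonic cells, edgeR adjusted p = 0.0204) and OCLN, occludin of tight junctions, fell (-1.72, edgeR adjusted p = 0.0354). The drop of OCLN was no longer called under upper quartile scaling, where the list had 4 higher and 0 lower. CDH1, the defining cadherin of epithelia, was between 0.552 and 0.962 CPM in every library. Of 17 epithelial transcription factors tested, 2 were higher and 1 lower against isotonic cells, with a median of 1.35, and 3 were higher and 1 lower against hypertonic cells, with a median of 1.07. Beside those same shares, the count of factors higher against isotonic cells is close to that of all rows. GRHL3, a factor of epidermal differentiation and repair whose span overlaps STPG1, was at 28.6 and 26.8 CPM in rescue libraries, 2.06 and 4.59 CPM in hypertonic libraries, and 4.92 and 2.37 CPM in isotonic libraries (2.65 over isotonic cells, edgeR adjusted p = 0.0282). TP73, a p53 relative whose span overlaps WRAP73, fell (-1.22, edgeR adjusted p = 0.0284). KLF5, a factor of proliferating epithelia named after its values were seen, was at 198.4 and 189.6 CPM in rescue libraries, 598.4 and 34.4 CPM in hypertonic libraries, and 34.3 and 598.2 CPM in isotonic libraries, and did not pass.

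The markers of the labelled osteosarcoma line were mixed in level. COL1A1 was at 888.8 and 827.6 CPM in rescue libraries, 941.7 and 1157 CPM in hypertonic libraries, and 1175 and 864.7 CPM in isotonic libraries, while RUNX2 was at 62.8 and 68.6 CPM in rescue libraries, 17.2 and 76.1 CPM in hypertonic libraries, and 77.7 and 17.6 CPM in isotonic libraries. COL1A2, SP7, BGLAP and IBSP, also genes of bone-forming cells, were each at or below 1.09 CPM in every library. ALPL, the bone alkaline phosphatase, was between 0.732 and 2.82 CPM, and SPP1, osteopontin, between 2.49 and 4.26 CPM. Of the 20 osteoblast and mesenchymal genes none passed against isotonic cells with edgeR, and only COL1A1 passed, lower, against hypertonic cells (log2 fold change -0.59, edgeR adjusted p = 0.0466). No gene of the 5 lists passed between hypertonic and isotonic cells.

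**Figure D4:**
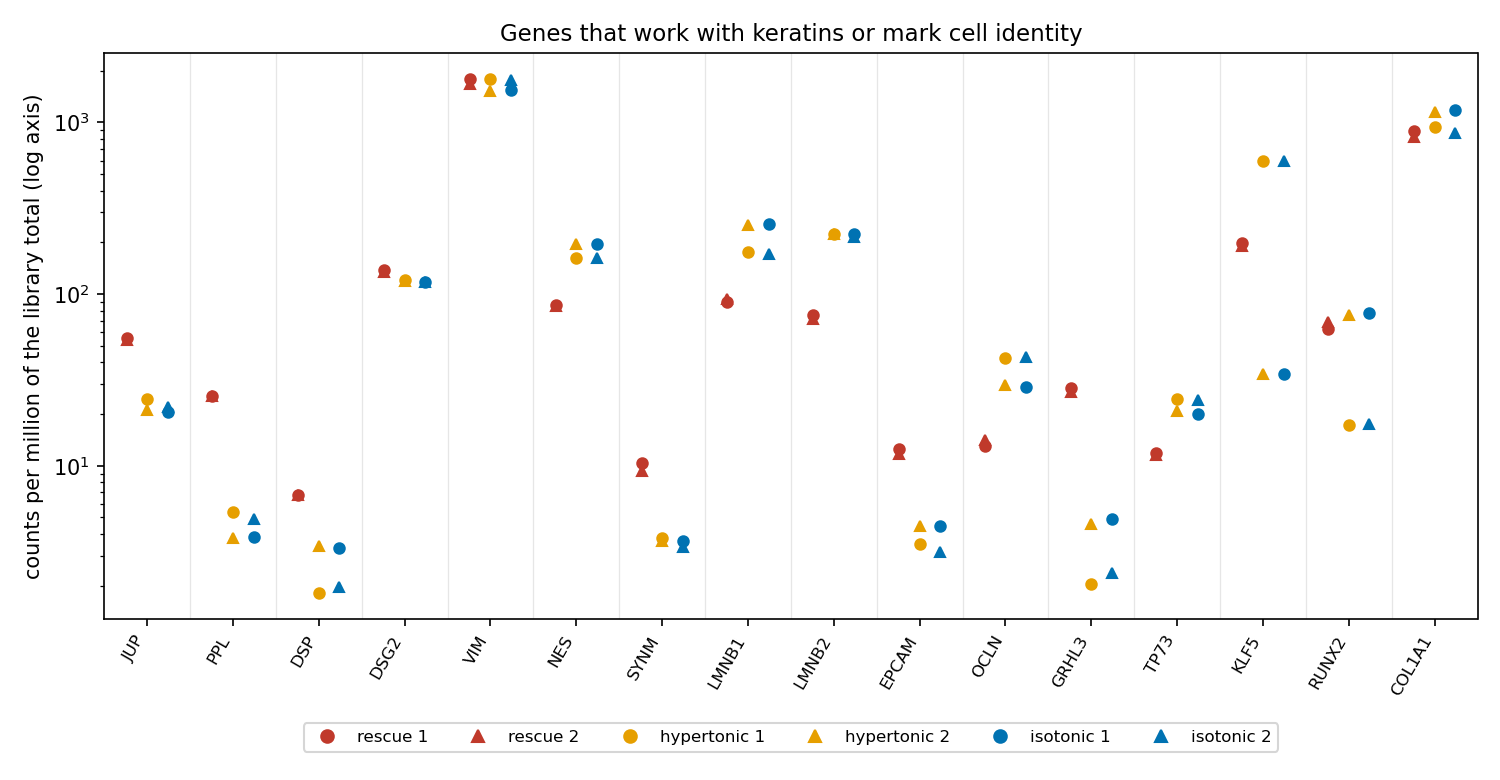
Level of 16 genes from the 5 companion lists, picked for display after their values were seen, in CPM by library total on a log axis with 1 point per library. JUP, PPL, SYNM, EPCAM and GRHL3 lie higher in the rescue libraries, NES, LMNB1, LMNB2, OCLN and TP73 lie lower, and KLF5 and RUNX2 split the hypertonic and isotonic libraries by number.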

How the data were processed

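Total RNA was sequenced after removal of ribosomal RNA, per the labels' protocols, in 6 libraries of 3 groups. The authors deposited a table of raw gene counts for each library, whole numbers without normalization. TopHat2, Bowtie2, bedtools and bcl2fastq were used with GRCh38, per the submitters' processing notes; versions, annotation and strand handling: not given in the sources used here. Between 75.5% and 82.0% of counts of 1 to 50 per library were even numbers, so low counts are not independent reads. Intervals and floors cover counting error only.

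From these counts edgeR 4.0.16 (R 4.3.3, limma 3.58.1) fitted all 6 libraries with a mean per group after its expression filter and TMM scaling, using the robust quasi-likelihood test, 2-sided, with Benjamini-Hochberg adjustment over 18208 rows and a threshold of 0.05. The SE was taken from the fold change and F. The common biological coefficient of variation was 38.4%. Scripts were tested on simulated data with a spread set lower than the one fitted here. That run does not show how the test performs at the spread of these libraries. Alternatives were DESeq2 1.42.0, limma voom, other scalings, no filter, fewer libraries and a replicate block. Deviations of same-numbered libraries were nearly uncorrelated for rescue and isotonic (-0.03) and for rescue and hypertonic (0.04). For hypertonic and isotonic they were strongly opposed (-0.88), the crossed resemblance described above. The numbers were therefore not used as pairs.

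Coordinates and overlaps came from GENCODE 29, matched by symbol; of 55 keratins 34 had a RefSeq promoter entry. Keratin classes were assigned by hand from general knowledge. Keratins averaging at least 1 CPM, those that passed, and KRT5, KRT7, KRT8, KRT10, KRT14, KRT17, KRT18 and KRT19 were named with values. Of each list, the rule named at most 4 genes that passed with at least 5 CPM. Genes outside these rules were also given, among them KRT13, KRT6B, KRT33B, KRT78, DSP, DSG3, VIM, CDH1, RUNX2 and ALPL. The members, lists and rules were chosen with earlier results of these data known.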

Additional observations from a re-analysis of the deposited data

How the results depend on the processing

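With rescue against isotonic cells, 5 keratins were called, 9 with DESeq2 and with limma voom, and 28 and 30 when only the libraries numbered 1 or 2 of the hypertonic and isotonic groups were kept; with rescue against hypertonic cells the 6 calls became 14, 12, 29 and 26 in that order. Over all rows, 4202 calls against isotonic cells became 7041 with DESeq2, 4896 with limma voom and 14591 and 14898 by number, and 4304 against hypertonic cells became 7105, 5052, 15027 and 14586. Hypertonic against isotonic, at 0 in edgeR, gave 15 and 14 keratins and 11841 and 11776 rows by number, and 1 row with DESeq2. With the replicate block, 0 keratins and 0 rows were called in both rescue comparisons; the numbers are not known to pair libraries, and KRT8 between hypertonic and isotonic cells became -0.001. Crossed pairing of hypertonic and isotonic libraries, chosen after the data were seen, called 21 rows and 0 keratins. Leaving out 1 library gave 0 to 5 keratins and 0 to 3460 rows against isotonic cells and 0 to 8 keratins and 0 to 3691 rows against hypertonic cells. Without a library of the groups compared fewer samples remain; the cause of the other shifts was not tested.

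Some log2 fold changes that were not called turned sign. Over isotonic cells in rescue, KRT18 became 0.21 and KRT8 0.067 with number 1, KRT8 0.002 and KRT81 0.086 with upper quartile scaling; leaving out 1 library spanned -0.85 to 0.21 for KRT18 and -0.45 to 0.066 for KRT8. Hypertonic over isotonic, KRT8 was -0.53 and KRT18 -1.05 with number 2, KRT17 -0.46, KRT34 -1.63 and KRT75 -0.80 with number 1, and KRT34 -0.001 with limma voom. Leaving out 1 library spanned -0.29 to 0.29 for KRT8, -0.20 to 0.38 for KRT17, -0.62 to 0.63 for KRT18, -1.08 to 1.02 for KRT34 and -0.39 to 0.60 for KRT75. KRT15, KRT19, KRT6A, KRT7, KRT80 and, against hypertonic cells, KRT31 kept their sign under every alternative run. Depth limits the 20 untested keratins, none above 16 counts in a library.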
